A study of Mus musculus with 60 samples.

Results

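The small intestine was compared with the colon in whole-tissue RNA of the mouse. The comparison used the 8 libraries that the labels assign to these tissues, of 60 in the study, with 4 libraries of small intestine and 4 of colon. Both groups came from female C57BL6/J mice aged 6 weeks that had been perfused through the heart with saline and EDTA, and neither carried a mutation or received an agent according to the labels. RNA was extracted from lysed tissue, and the labels do not give the segment of intestine or colon that was taken. The study profiled 15 tissues with an assay that reads the 3' ends of polyadenylated RNA, as a set of methods for following gene expression across an organism. Only nuclear protein-coding genes were compared: 10411 of 21982 in the table passed the filter on low counts and were tested. A level is given in CPM, the count of a gene scaled to the nuclear protein-coding counts of its library after these totals were adjusted by TMM, a scaling that evens out the bulk of genes between libraries. The TMM factors were 0.886 to 0.963 in small intestine and 1.067 to 1.113 in colon. A log2 fold change is that of small intestine over colon with its standard error. Errors of levels are SD over 4 libraries.

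The small intestine digests and absorbs. Its villi are lined by enterocytes whose brush border carries sugar-splitting and peptide-splitting enzymes and uptake carriers, and the base of its crypts holds Paneth cells, which secrete antimicrobial peptides. The colon has no villi. Its epithelium takes up water, sodium and the short-chain fatty acids made by bacteria, and many goblet cells keep a thick layer of mucus over it. In the embryo, Hox genes of the posterior end of each cluster mark the hindgut, from which the distal colon forms.

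Library totals ran from 2072584 to 3035803 counts in small intestine and from 750212 to 951914 in colon, so low genes were less well measured in colon. Nuclear protein-coding genes held 82.3 to 84.9% of the counts in small intestine and 93.4 to 94.4% in colon. Mitochondrial ribosomal RNA held 7.52 to 9.59% in small intestine, against 0.736 to 0.928% in colon, and the nuclear RNA Malat1 held 0.131 to 0.170% in small intestine, against 0.0151 to 0.0218% in colon. Lung shared the low shares of colon, and over the 13 other tissues mitochondrial ribosomal RNA held 4.33 to 40.6% and Malat1 0.131 to 1.65%. Whether this is a feature of the tissue or of how its RNA was prepared cannot be told apart, and its part in the results was not tested. The labels do not say that each replicate of a tissue is a separate mouse, so p-values measure the spread between these libraries. The Spearman correlation of libraries was 0.966 to 0.977 within small intestine, 0.928 to 0.951 within colon and 0.703 to 0.746 between the tissues, over all tested genes, which are not independent replicates. Colon replicate 2 and small intestine replicate 4 stood apart from the other libraries of their tissues in genes that are described further on, and the counts over all genes are given with and without both.

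In the small intestine 1346 genes were higher (12.9% of those tested) and 1232 were lower (11.8%) than in the colon, at an adjusted p below 0.05 in edgeR's quasi-likelihood test and a log2 fold change beyond 1 in size, which together made 24.8%. The median log2 fold change of all tested genes was -0.03. Scaled by library totals alone, which shifts the median to -0.27, the split was 996 higher and 1735 lower. Without colon replicate 2 and small intestine replicate 4, 1415 genes were higher and 1342 lower, of 10933 tested. Among the called genes, 38 had no read in any colon library and 10 had none in any small intestine library. Each of these genes passed the filter through the tissue that held its reads, so that its direction follows from the filter. The colon libraries were shallower, so a gene is more easily without a read there, and these counts cannot be compared directly. All 4 small intestine libraries lay above all 4 colon libraries in 2477 genes (23.8% of those tested), and below them in 2369 (22.8%), or 46.5% in either direction. Scaled by library totals alone, these counts were 1771 above and 3437 below. A log2 fold change beyond 5 was fitted for 136 called genes that were higher and for 49 that were lower. In bulk tissue, a lower level can mean fewer cells of a type or less RNA per cell, and these cannot be told apart.

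**Figure D1:**
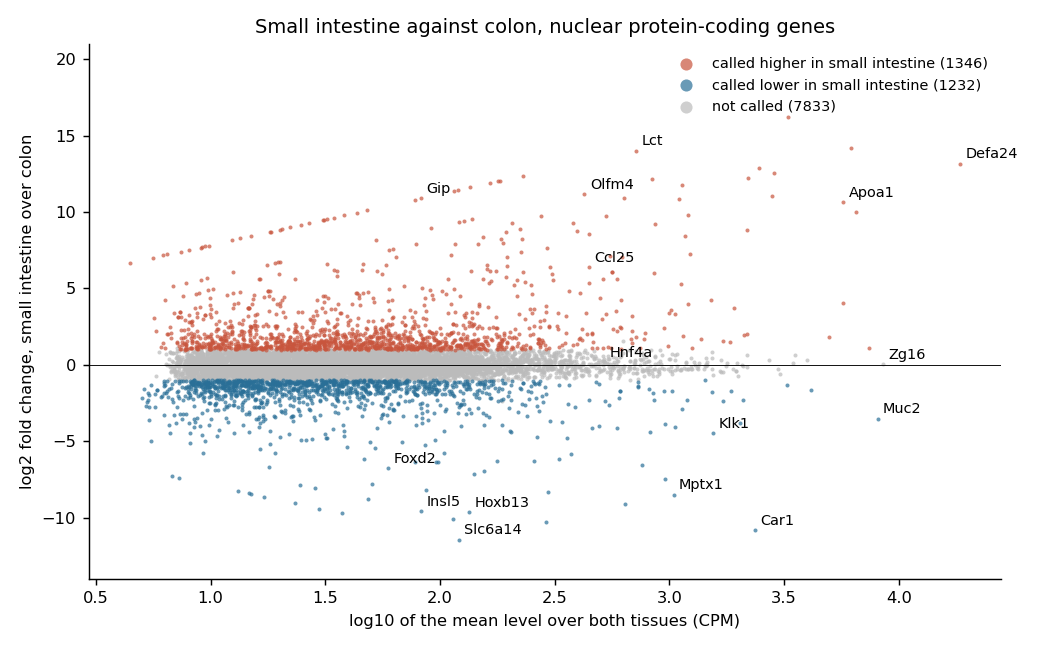
Log2 fold change of small intestine over colon against the mean level over both tissues (log10 CPM) for the 10411 tested genes. Red points are the 1346 genes called higher, blue points the 1232 called lower and grey points those not called. Genes with no read in a tissue have a fitted fold change that depends on a prior count, which gives the straight edge of points at the top left.

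The tissues carried the genes that mark them. Lct encodes lactase, the milk-sugar enzyme of the brush border (ENSMUSG00000026354, chr1:128284756-128328318 in GRCm38). It had 1765, 1235, 1056 and 1698 CPM in small intestine, against no read in any colon library. All small intestine libraries were high and lactase was at least 1650.2-fold higher (3 counts over the 4 colon libraries, adjusted p = 1.18e-12). Car1 encodes a carbonic anhydrase that is abundant in colonocytes (chr3:14766216-14808368). It had 4.56, 2.93, 1.66 and 0.633 CPM in small intestine, against 6723, 1329, 6624 and 4141 CPM in colon. The tissues did not overlap, colon replicate 2 was the lowest of its tissue, and the log2 fold change was -10.83 ± 0.55 (adjusted p = 1.90e-11). Hoxb13, the last gene of its Hox cluster (chr11:96194316-96197447), had 0.506, 0, 0.416 and 0 CPM in small intestine, against 214, 477, 191 and 190.1 CPM in colon. It was at or near 0 in all small intestine libraries and highest in colon replicate 2, and it was 1033-fold lower (95% counting interval 285 to 8546) (adjusted p = 2.70e-11).

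The leading genes of the small intestine, by size of change among genes with at least 50 CPM, were AY761184, Defa30, Lct, Defa24, Defa21, Mptx2, Defa22, Defa17, Defa26, Defa34, Slc2a2 and Apoa4. The colon was led by Slc6a14, Car1, Tgm3, Cyp2d34, Atp12a, Hoxb13, Insl5, Best2, Saa1, Fxyd4, Mptx1 and Sval1. All 24 genes were picked among called genes whose libraries did not overlap between the tissues, so their lack of overlap follows from the choice.

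**Figure D2:**
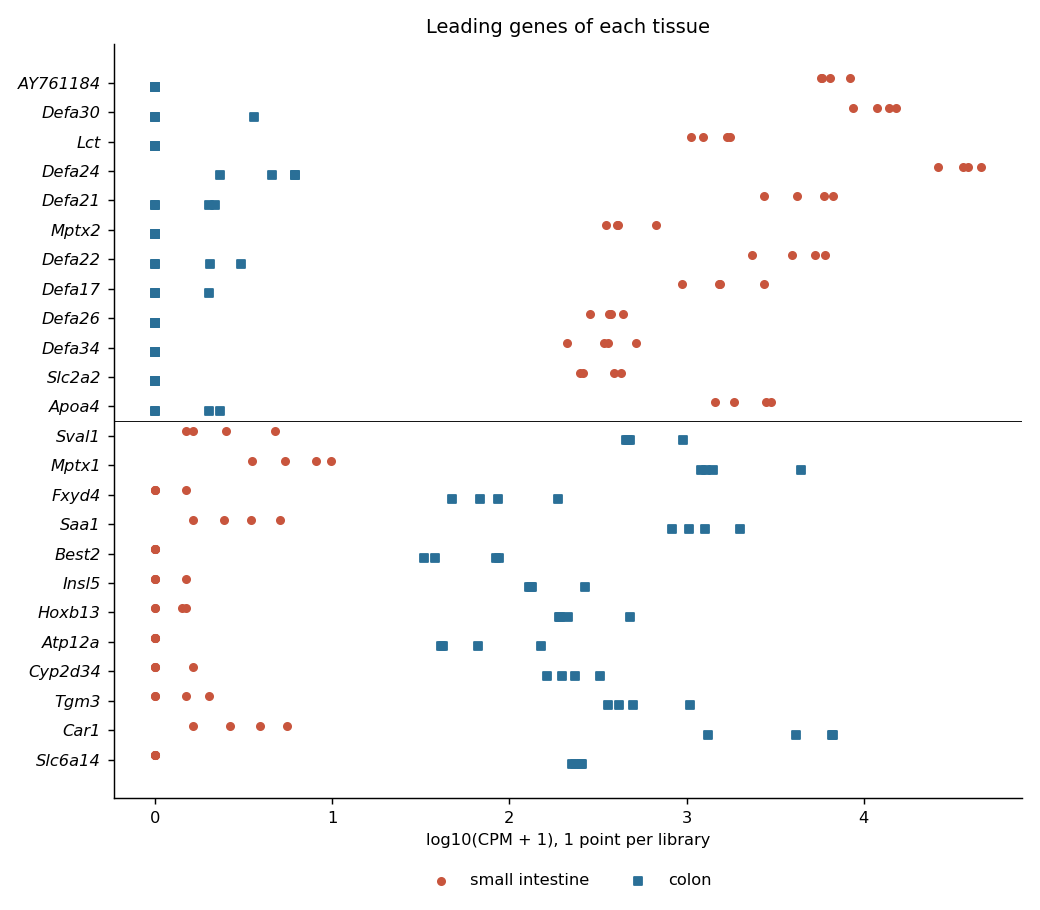
Levels of the 12 leading genes of each tissue, as log10(CPM + 1), with 1 point per library. Red circles are the 4 small intestine libraries and blue squares the 4 colon libraries. Only genes in which the 2 sets of points lie apart could be chosen.

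Brush border genes were higher in the small intestine as a group. Of 24 tested members, 20 were called higher and none lower, where 12.9% and 11.8% of all tested genes were called in these directions. The median log2 fold change was 3.60, against -0.03 for all genes. The same shares of all tested genes stand beside the list counts of this fit that follow. The disaccharidases Lct, Treh and Sis had the largest values. Sis, sucrase-isomaltase, had 1719.7, 1685, 1533 and 1999 CPM in small intestine, against 2.06, 0, 4.14 and 4.78 CPM in colon. Its colon libraries held at most a few reads, and its log2 fold change was 9.22 ± 0.26 (adjusted p = 1.60e-14). Treh, trehalase, had 249, 208, 167 and 299.96 CPM in small intestine, against no read in any colon library and was at least 263-fold higher. Mgam, which completes starch digestion as maltase-glucoamylase, had 1920.5 ± 313 CPM in small intestine and 189 ± 24.4 CPM in colon and a smaller log2 fold change of 3.34 ± 0.15 (adjusted p = 2.96e-12). The peptidases followed, with Anpep (aminopeptidase N) at 2438 ± 589.5 CPM in small intestine and 15.7 ± 3.65 CPM in colon. Alpi, the intestinal alkaline phosphatase, had a log2 fold change of 7.04 ± 0.30 and Dpp4, dipeptidyl peptidase, one of 3.83 ± 0.19. Vil1 (villin, which bundles actin in microvilli) had 1802 ± 329.8 CPM in small intestine and 487 ± 49.5 CPM in colon, a log2 fold change of 1.89 ± 0.14, and Myo1a (a brush border myosin) had one of 1.72 ± 0.14. The 4 members that were not called were Eps8, Mep1a, Cdhr5 and Ush1c, and the astacin protease Mep1a had 541 ± 158 CPM in small intestine and 399 ± 57.8 CPM in colon.

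The 250 bases before the start of Lct, at chr1:128328319-128328568 on the minus strand (RefSeq, GRCm38.p6), are printed because this gene had no read in colon. Capitals mark matches to AGATAA on either strand, the core bound by GATA factors, which begin 101 and 90 bases before the start.
Lct: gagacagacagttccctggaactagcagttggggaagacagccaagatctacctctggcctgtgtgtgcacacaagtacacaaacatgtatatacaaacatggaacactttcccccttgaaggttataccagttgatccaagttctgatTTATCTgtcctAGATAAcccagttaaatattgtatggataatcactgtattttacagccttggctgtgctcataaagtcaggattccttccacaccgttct
A match is a description of the letters only.

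Uptake carriers for sugars and amino acids behaved alike, with 22 of 23 tested members higher, none lower and a median log2 fold change of 3.97. Slc2a2 (GLUT2, the basolateral glucose exit) had 389.8, 259, 249.95 and 425 CPM in small intestine, against no read in any colon library. Reads were found in small intestine only, and it was at least 378-fold higher (adjusted p = 5.72e-11). Slc5a1, the sodium-glucose carrier SGLT1, had 1815 ± 319 CPM in small intestine and 169.8 ± 14.1 CPM in colon and a log2 fold change of 3.42 ± 0.15 (adjusted p = 2.36e-12). Slc2a5, the fructose carrier, had 175 ± 46.3 CPM in small intestine and 5.39 ± 4.74 CPM in colon, and Khk, which phosphorylates fructose, had 486 ± 95.6 CPM in small intestine and 19.1 ± 1.99 CPM in colon. For protein products, the neutral amino acid carrier Slc6a19 had 581, 422, 372 and 435 CPM in small intestine, against 0, 0, 3.102 and 2.39 CPM in colon. The small intestine libraries were all far above the colon libraries (log2 fold change 8.23 ± 0.32, adjusted p = 6.45e-13). Slc7a9, the carrier of basic amino acids and cystine, was 50.9-fold higher, and the peptide carrier Slc15a1 was 10.4-fold higher. Slc5a4a and Slc5a4b were higher too, but they are close copies whose reads could be split between them. The proton-coupled carrier Slc36a1 was not called (log2 fold change 0.62 ± 0.25), but it was without colon replicate 2, at 1.02.

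Genes for fat absorption showed the widest shift of the nutrient groups, with a median log2 fold change of 4.73. Of 30 tested members 24 were higher and 1 lower. The apolipoproteins of chylomicrons were close to absent from colon. Apoa4 had 3001, 1851, 1449 and 2814 CPM in small intestine, against 1.03, 1.32, 0 and 0 CPM in colon, and Apoa1 had 14865, 10976, 8605 and 11391 CPM in small intestine, against 10.3, 5.295, 10.3 and 1.196 CPM in colon. In both, every small intestine library lay far above every colon library. Apoa4 held 2 reads in colon and was 3888-fold higher (95% counting interval 1076 to 32108, adjusted p = 1.18e-13). The log2 fold change of Apoa1 was 10.65 ± 0.31 (adjusted p = 1.68e-14). Mttp, which loads lipid onto apolipoprotein B, had 792 ± 115 CPM in small intestine and 1.67 ± 1.53 CPM in colon, and Apob itself was 87.3-fold higher. Npc1l1, the cholesterol uptake protein, had 929.97, 809, 571 and 739 CPM in small intestine, against 2.06, 1.32, 1.03 and 0 CPM in colon. It was high in small intestine throughout (log2 fold change 9.29 ± 0.30, adjusted p = 4.96e-14), and Abcg5 and Abcg8, which pump sterols back into the lumen, were 41.6-fold higher and 269-fold higher (95% counting interval 91.8 to 1304). The fatty acid binding proteins differed in degree, with Fabp1 at 2209.8 ± 772 CPM in small intestine and 1.03 ± 1.46 CPM in colon and Fabp2 at 10788 ± 1912 CPM in small intestine and 661 ± 204 CPM in colon. Mogat2 and Dgat1, which rebuild triglyceride in the enterocyte, had log2 fold changes of 6.48 ± 0.24 and 4.26 ± 0.17. The member that fell was Scd2, a fatty acid desaturase, with 50.02 ± 13.2 CPM in small intestine and 351 ± 104 CPM in colon (log2 fold change -2.80 ± 0.21, adjusted p = 3.24e-09). Plin2, a lipid droplet protein, was not called.

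Bases before the start of 3 genes of fat absorption are shown (RefSeq, GRCm38.p6) because they were among the genes with large changes and hold different matches. Capitals mark CAAAGTNCA, a core of HNF4 sites, in Fabp2 and Apoa4, TTTATNG, the core of CDX factors, in Fabp2, and GTTAAT, a core of HNF1 sites, in Npc1l1, each on either strand.
Fabp2 (chr3:122894822-122895071, plus strand): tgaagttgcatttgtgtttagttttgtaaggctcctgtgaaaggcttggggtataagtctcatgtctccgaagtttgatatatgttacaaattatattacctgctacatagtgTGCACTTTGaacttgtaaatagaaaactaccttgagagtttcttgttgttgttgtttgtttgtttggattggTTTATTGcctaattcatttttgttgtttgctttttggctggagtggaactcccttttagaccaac
Apoa4 (chr9:46240594-46240843, plus strand): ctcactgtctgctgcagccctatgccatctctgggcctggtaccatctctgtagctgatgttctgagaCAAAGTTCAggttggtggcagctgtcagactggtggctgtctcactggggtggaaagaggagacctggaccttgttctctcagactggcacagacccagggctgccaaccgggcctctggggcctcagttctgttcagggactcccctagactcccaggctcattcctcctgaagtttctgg
Npc1l1 (chr11:6230246-6230495, minus strand): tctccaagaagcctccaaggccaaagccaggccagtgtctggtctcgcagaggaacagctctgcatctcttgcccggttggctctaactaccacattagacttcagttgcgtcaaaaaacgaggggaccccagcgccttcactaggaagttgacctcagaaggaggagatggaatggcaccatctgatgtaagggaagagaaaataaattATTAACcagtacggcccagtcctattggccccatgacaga
The matches begin 137 (HNF4) and 65 (CDX) bases before the RefSeq start in Fabp2, 182 in Apoa4 and 40 in Npc1l1. In GENCODE the Apoa4 gene begins at chr9:46240696, inside the printed bases, so the distance for Apoa4 depends on the annotation.

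In bile acid handling 8 of 12 tested members were higher and 1 lower. Fabp6, the bile acid binding protein of the ileum, had 5173, 5496, 4349.9 and 2452 CPM in small intestine, against 14.4, 6.62, 6.204 and 9.56 CPM in colon. Replicate 4 was the lowest of the small intestine (log2 fold change 8.86 ± 0.31, adjusted p = 1.22e-13). Fgf15, the hormone by which the ileum restrains bile acid synthesis in the liver, had 69.9, 72.4, 49.9 and 22.8 CPM in small intestine, against no read in any colon library and was at least 64.9-fold higher. The exit carrier subunits Slc51a and Slc51b were 5.88-fold higher and 3.21-fold higher. Slc10a2, which takes bile acids up from the lumen, was not called, with 116, 80.2, 76.5 and 16.5 CPM in small intestine, against 69.1, 3.97, 78.6 and 74.1 CPM in colon. In this gene replicate 4 was lowest among small intestine libraries and replicate 2 lowest among colon libraries. Abcc3, an exporter of conjugates, was the member that fell, with 47.4 ± 8.74 CPM in small intestine and 127 ± 23.8 CPM in colon. For metals and vitamins, 7 of 16 members were higher and 3 lower. Cubn and Amn, which together form the receptor for vitamin B12 with intrinsic factor, were 54.8-fold higher and 47.3-fold higher. Slc23a1, a vitamin C carrier, had 61.7 ± 21.7 CPM in small intestine and no read in any colon library, and Slc46a1, the folate carrier, was 6.93-fold higher. The iron exporter Slc40a1 fell, at 56.6 ± 46.9 CPM in small intestine and 124 ± 19.98 CPM in colon, with a log2 fold change of -1.16 ± 0.38 that was -0.80 and -0.94 without small intestine replicates 1 and 2, where the call was lost, and -1.76 without replicate 4. So did the phosphate carrier Slc20a1, at 31.3 ± 7.81 CPM in small intestine and 236 ± 62.97 CPM in colon, and Cd320, a receptor for vitamin B12, at 15.7 ± 2.59 CPM in small intestine and 42.1 ± 10.9 CPM in colon.

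Paneth cell genes had the largest median shift of the 37 lists examined, with 16 of 18 tested members higher and a median log2 fold change of 10.99, or 9.72 with the 3 genes without colon reads placed at their bounds. The alpha-defensins are the antimicrobial peptides of Paneth granules, and together they held 4.00 to 7.14% of the nuclear protein-coding counts of the small intestine libraries. Defa24 (chr8:21734494-21735471) had 36492, 45951, 38862 and 26241 CPM in small intestine, against 5.16, 1.32, 5.17 and 3.59 CPM in colon. Defa30 had 11887, 15194, 13933 and 8679 CPM in small intestine, against 0, 2.65, 0 and 0 CPM in colon. Both were high in every small intestine library, with log2 fold changes of 13.16 ± 0.29 (adjusted p = 1.38e-15) and 14.21 ± 0.38 (adjusted p = 9.15e-15). Lyz1, the lysozyme of Paneth cells, had 13050.5 ± 2438 CPM in small intestine and 12.9 ± 7.76 CPM in colon, and Mmp7, the protease that activates defensins in mice, had 318 ± 66.9 CPM in small intestine and 3.43 ± 3.397 CPM in colon. Itln1, a lectin that binds bacterial sugars, had 5593 ± 1343 CPM in small intestine and 2.54 ± 1.94 CPM in colon. Ang4, a ribonuclease with antimicrobial activity, had 1878 ± 553 CPM in small intestine and 159.7 ± 157 CPM in colon and a log2 fold change of 3.58 ± 0.42, or 4.53 without colon replicate 2. The member that fell was Nupr1, a stress-induced nuclear protein, with 69.6 ± 20.6 CPM in small intestine and 458 ± 117 CPM in colon. Clps, the colipase made also by the pancreas, was not called, with 902, 1062, 923 and 842 CPM in small intestine, against 61.9, 1097, 68.2 and 75.3 CPM in colon. Its colon signal lay mostly in replicate 2, which also held pancreatic enzyme genes, while the other colon libraries had 61.9 to 75.3 CPM. Without colon replicate 2 Clps was called higher at a log2 fold change of 3.77.

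Defensin genes are close copies, and reads can be split between them or dropped, so values of single members are uncertain. The bases before the start of Defa21 (chr8:21025295-21025544) and Defa22 (chr8:21162027-21162276), both on the plus strand (RefSeq, GRCm38.p6), show how close they are: they are identical at 250 of 250 positions.
Defa21: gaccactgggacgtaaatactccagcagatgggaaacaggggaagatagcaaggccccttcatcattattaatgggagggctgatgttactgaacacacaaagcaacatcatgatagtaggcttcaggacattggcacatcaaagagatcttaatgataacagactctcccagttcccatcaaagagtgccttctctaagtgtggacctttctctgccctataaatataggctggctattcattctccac
Defa22: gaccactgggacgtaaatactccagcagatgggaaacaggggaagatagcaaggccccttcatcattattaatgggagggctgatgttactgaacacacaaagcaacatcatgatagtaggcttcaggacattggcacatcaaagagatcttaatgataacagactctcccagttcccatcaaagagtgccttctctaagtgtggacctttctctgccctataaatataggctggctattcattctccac
Defa21 had 4917 ± 1787 CPM in small intestine and 0.557 ± 0.646 CPM in colon, and Defa22 had 4413 ± 1641 CPM in small intestine and 0.774 ± 0.988 CPM in colon.

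Other antimicrobial products of the epithelium split by tissue, with 4 of 18 tested members higher and 8 lower. The C-type lectins of the Reg family formed the higher side. Reg3b had 3215, 3712, 2618 and 2036 CPM in small intestine, against 153, 2.65, 311 and 129 CPM in colon. Colon replicate 3 was the highest colon library (log2 fold change 4.26 ± 0.53, adjusted p = 2.71e-06), or 4.90 without it. Reg3g, which targets Gram-positive bacteria, was 70.4-fold higher and Reg3a 509-fold higher (95% counting interval 174 to 2470.5). Reg3 genes are similar in sequence and may share reads. On the lower side were Retnlb, a resistin-like molecule of goblet cells, with 0, 1.96, 0 and 0 CPM in small intestine, against 216, 209, 165 and 100.4 CPM in colon, and Saa1, a serum amyloid that has a close copy, with 4.05, 1.47, 2.495 and 0.633 CPM in small intestine, against 1036, 2008, 823 and 1269 CPM in colon. Neither gene overlapped between tissues, and the log2 fold changes were -8.20 ± 0.43 (adjusted p = 2.60e-11) and -9.11 ± 0.35 (adjusted p = 5.56e-13). Lypd8, which keeps flagellated bacteria off the colon surface, had 2049 ± 89.5 CPM in small intestine and 6269 ± 857 CPM in colon, and Dmbt1, a scavenger receptor of mucosal fluid, had 553 ± 157 CPM in small intestine and 2874 ± 536 CPM in colon. Duox2, an oxidase that makes hydrogen peroxide, also fell (log2 fold change -1.86 ± 0.22).

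The colonocyte group ran the other way. Of 28 tested members 20 were lower in small intestine and 2 higher, with a median log2 fold change of -3.15. Slc6a14, a sodium- and chloride-coupled amino acid carrier, had no read in any small intestine library, against 235, 225, 251 and 255 CPM in colon. The 4 colon libraries were close together, and it was at least 646-fold lower (adjusted p = 1.34e-13). Aqp8, a water channel, had 6.58, 4.89, 4.99 and 10.1 CPM in small intestine, against 513, 851, 312 and 357 CPM in colon. Colon was above small intestine throughout (log2 fold change -6.28 ± 0.33, adjusted p = 2.92e-11). Atp12a, the colonic proton-potassium pump, had no read in any small intestine library, against 41.3, 151, 40.3 and 65.8 CPM in colon, highest in colon replicate 2, and was at least 188-fold lower. Scnn1a and Scnn1b, subunits of the epithelial sodium channel, were 9.38-fold lower and at least 35.5-fold lower. Hsd11b2, which protects the aldosterone receptor from cortisol-like hormones, had 19.3 ± 2.35 CPM in small intestine and 508 ± 69.5 CPM in colon, and the receptor itself, Nr3c2, had 28.9 ± 6.01 CPM in small intestine and 67.9 ± 6.16 CPM in colon. Car2 and Car4, further carbonic anhydrases, had log2 fold changes of -4.78 ± 0.28 and -2.33 ± 0.18. The 2 members that were higher in small intestine were the water channel Aqp1, with 331 ± 24.4 CPM in small intestine and 96.4 ± 28.7 CPM in colon, and Ly6d, with 14.99 ± 6.49 CPM in small intestine and 6.596 ± 2.901 CPM in colon. The call of Ly6d was lost without colon replicate 3 (log2 fold change 1.04, adjusted p = 0.0649). Slc26a2, Slc12a2 and Slc9a3, carriers of sulfate, salt and sodium in that order, were not called.

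Among the leading colon genes outside this list, Tgm3, a transglutaminase, had 1.01, 0.489, 0 and 0 CPM in small intestine, against 500.4, 1040.5, 358 and 416 CPM in colon. Colon replicate 2 was the highest. Tgm3 held 3 reads in small intestine and was 1486-fold lower (95% counting interval 508 to 7212, adjusted p = 1.17e-11). Fxyd4, a regulator of the sodium pump, had 0.506, 0, 0 and 0 CPM in small intestine, against 67.1, 188, 46.5 and 84.9 CPM in colon and was 733-fold lower (95% counting interval 131 to 29034). Sval1, a seminal-vesicle-antigen-like gene, had 1.596 ± 1.502 CPM in small intestine and 589 ± 241 CPM in colon. The bases of Tgm3 and Slc6a14 are printed too (RefSeq, GRCm38.p6). All printed genes were picked by hand, so they do not compare the tissues. Slc6a14 holds no match to the 4 motifs. The match of Tgm3 to TTTATNG, in capitals and beginning 29 bases before the start, overlaps a TATAAA. Its letters CTATAAA also occur in the printed bases of Defa21 and Defa22, where no motif was marked.
Slc6a14 (chrX:21714650-21714899, plus strand): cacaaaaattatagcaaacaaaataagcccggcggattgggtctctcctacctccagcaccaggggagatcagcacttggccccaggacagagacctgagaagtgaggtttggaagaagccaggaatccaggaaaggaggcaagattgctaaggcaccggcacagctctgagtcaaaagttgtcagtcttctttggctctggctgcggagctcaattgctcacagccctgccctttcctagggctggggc
Tgm3 (chr2:130012090-130012339, plus strand): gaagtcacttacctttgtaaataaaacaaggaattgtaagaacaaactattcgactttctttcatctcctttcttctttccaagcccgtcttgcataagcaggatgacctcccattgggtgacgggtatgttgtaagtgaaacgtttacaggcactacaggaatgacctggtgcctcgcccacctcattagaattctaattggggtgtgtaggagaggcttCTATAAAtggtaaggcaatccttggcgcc

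Bacterial fermentation supplies colonocytes with butyrate. Of 18 tested genes of short-chain fatty acid and ketone handling, 6 were lower in small intestine and 1 higher, against backgrounds of 11.8% and 12.9% of all genes. The butyrate carrier Slc16a1 had 79.9 ± 13.3 CPM in small intestine and 182 ± 25.7 CPM in colon, and Slc5a8, another, had 71.8 ± 11.3 CPM in small intestine and 159 ± 26.9 CPM in colon. The receptor Ffar2 had 14.9 ± 4.49 CPM in small intestine and 46.6 ± 6.22 CPM in colon. Slc16a3, a carrier of lactate, was the member that rose, with 21.1 ± 3.97 CPM in small intestine and 6.91 ± 4.71 CPM in colon.

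Goblet cell genes were lower in small intestine in 18 of 26 tested members and higher in none (median log2 fold change -2.02). Muc2, the gel-forming mucin, had 1462, 1326, 1175 and 1208 CPM in small intestine, against 15652, 11784, 15796 and 16363 CPM in colon. No library overlapped, and the log2 fold change was -3.53 ± 0.14 (adjusted p = 6.96e-13). The transcription factors Atoh1, which sets the secretory fate, and Spdef, which drives goblet maturation, were 6.06-fold lower and 6.07-fold lower. Agr2, a disulfide isomerase needed for mucin folding, had 714 ± 40.8 CPM in small intestine and 3482 ± 321 CPM in colon, and Clca1, a secreted mucus-processing protease, had 854 ± 122 CPM in small intestine and 2843 ± 1063 CPM in colon. Some enzymes that build mucin sugars had large changes. Fut2, a fucosyltransferase, had 0.506, 1.47, 2.91 and 4.43 CPM in small intestine, against 186, 187, 211 and 179 CPM in colon. Small intestine libraries held at most a few CPM (log2 fold change -6.35 ± 0.23, adjusted p = 2.26e-13). B3gnt6, which makes a core of mucin sugars, was 28.7-fold lower, and St6galnac6, a sialyltransferase, was 56.1-fold lower. Best2, an anion channel of colonic goblet cells, had no read in any small intestine library, against 31.99, 83.4, 37.2 and 86.1 CPM in colon and was at least 153-fold lower, and Klk1, tissue kallikrein, was 22.2-fold lower. Several goblet genes showed no call. The lectin Zg16 had 10392, 8813, 6469.7 and 8929 CPM in small intestine, against 8551, 10879, 6791 and 7776 CPM in colon, with overlapping libraries and a log2 fold change of 0.03 ± 0.16. The trefoil peptide Tff3 had 4337 ± 447 CPM in small intestine and 2713 ± 389 CPM in colon, and Spink4, a small protease inhibitor, had 3020.3 ± 568 CPM in small intestine and 2439 ± 483 CPM in colon.

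Hormones of enteroendocrine cells divided along the gut. Of 17 tested members 4 were higher and 7 lower. Gip, the incretin of K cells, had 177, 139.9, 145 and 201 CPM in small intestine, against no read in any colon library, was found in small intestine only and was at least 191-fold higher. Ghrl (ghrelin) had 31.4, 23.5, 34.1 and 49.4 CPM in small intestine, against 0, 1.32, 1.03 and 2.39 CPM in colon, and Cck (cholecystokinin) had 63.6 ± 25.2 CPM in small intestine and 7.31 ± 4.28 CPM in colon. Both were above colon in all libraries (log2 fold changes 4.81 ± 0.48 and 3.03 ± 0.36). Nts, neurotensin, was called higher but had 108, 112, 76.5 and 58.9 CPM in small intestine, against 44.4, 0, 45.5 and 40.6 CPM in colon; replicate 2 was the colon library without a read. Insl5, the insulin-like peptide of colonic L cells, had 0.506, 0, 0 and 0 CPM in small intestine, against 134, 267, 128 and 132 CPM in colon and was 1284-fold lower (95% counting interval 229.5 to 50809.6). Pyy, peptide YY, had 33.5 ± 3.39 CPM in small intestine and 212 ± 43.5 CPM in colon, a log2 fold change of -2.65 ± 0.15, and Gcg, the source of GLP-1, had 27.4 ± 3.44 CPM in small intestine and 58.8 ± 7.47 CPM in colon, one of -1.09 ± 0.16, just short of the limit without small intestine replicate 4 (-0.99) and without colon replicate 3. Tph1, which makes serotonin in enterochromaffin cells, was 2.802-fold lower. The granule protein Chga, shared by these cell types, was not called, with 84.5 ± 6.704 CPM in small intestine and 97.8 ± 27.6 CPM in colon.

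**Figure D3:**
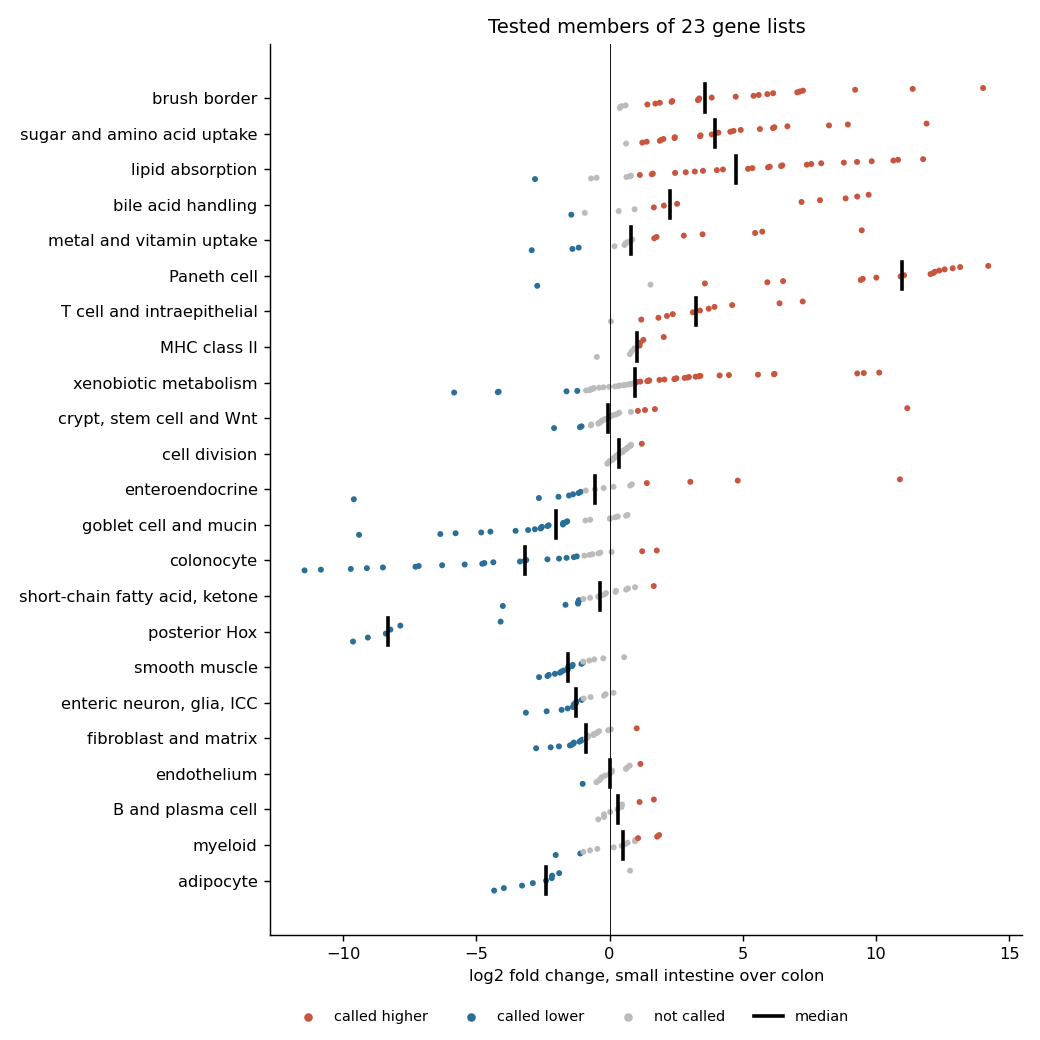
Log2 fold changes of small intestine over colon of the tested members of 23 gene lists, with 1 point per gene. Red points were called higher, blue points lower and grey points not called, and the black bar is the list's median. The nutrient, Paneth and T cell lists lie to the right of 0, and the goblet, colonocyte, posterior Hox and smooth muscle lists to the left. Fitted values of genes with no read in 1 tissue depend on a prior count.

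Related genes took opposite sides in several families. Of 40 tested members of these families 19 were higher and 13 lower. Guca2b encodes uroguanylin and Guca2a guanylin, peptides that act through the same receptor to drive salt and water secretion. Guca2b had 2848, 2117, 1463 and 2311 CPM in small intestine, against 54.7, 46.3, 59.98 and 59.8 CPM in colon. Guca2a had 2321, 2072, 1602 and 1411 CPM in small intestine, against 5704, 3778, 4523 and 4724 CPM in colon. Neither overlapped, and their log2 fold changes were 5.30 ± 0.20 (adjusted p = 3.55e-13) and -1.34 ± 0.16 (adjusted p = 1.61e-06). The receptor Gucy2c had 295, 227, 225 and 261 CPM in small intestine, against 261, 187, 235 and 283 CPM in colon. Its libraries overlapped and its log2 fold change was 0.06 ± 0.14 (adjusted p = 0.756). The mucosal pentraxin genes split between the tissues. Mptx2 had 402, 673, 352 and 407 CPM in small intestine, against no read in any colon library, and Mptx1 had 2.53, 4.402, 7.07 and 8.86 CPM in small intestine, against 1207, 4421, 1279 and 1416 CPM in colon. Mptx2 was at least 538-fold higher and Mptx1 364-fold lower, with colon replicate 2 highest for Mptx1 (log2 fold change -8.50 ± 0.48, or -7.83 without it). Among chloride-bicarbonate exchangers, Slc26a6 had 389 ± 79.9 CPM in small intestine and 2.71 ± 2.78 CPM in colon and Slc26a3 had 123 ± 11.1 CPM in small intestine and 458 ± 153 CPM in colon. Aquaporins split too, with Aqp3 and Aqp7, which also pass glycerol, at least 45.3-fold higher and at least 20.9-fold higher, while Aqp4 was 10.8-fold lower. In the claudins of tight junctions, Cldn15, which forms pores for cations, had 617 ± 95.3 CPM in small intestine and 189.9 ± 49.9 CPM in colon, and Cldn8, a sealing claudin, had 2.13 ± 0.421 CPM in small intestine and 61.98 ± 22.01 CPM in colon.

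Of 32 tested transcription factors with regional roles, 10 were higher in small intestine and 2 lower. Gata4, which maintains the identity of the proximal small intestine, had 114, 99.8, 99.8 and 147 CPM in small intestine, against 2.06, 1.32, 0 and 1.196 CPM in colon. Colon held at most a few reads (log2 fold change 6.55 ± 0.34, adjusted p = 2.11e-11). Gata5 was 63.4-fold higher, and Gata6, found along the whole gut, was 3.48-fold higher. Onecut2 had 78.5, 83.6, 141 and 208 CPM in small intestine, against 0, 0, 0 and 3.59 CPM in colon. Small intestine replicate 4 was the highest. The log2 fold change of 7.08 ± 0.60 rests on 3 colon reads, all in colon replicate 4. Without that library the log2 fold change was 10.60, a value that depends on a prior count. Creb3l3, which activates apolipoprotein genes, was 175-fold higher, and Hnf4g was 26.7-fold higher. Its paralog Hnf4a was not called, with 550.1 ± 34.8 CPM in small intestine and 494 ± 58.1 CPM in colon, and neither was the intestinal factor Cdx2, with 79.9 ± 8.11 CPM in small intestine and 75.6 ± 21.1 CPM in colon. Maf, a bZIP factor, had 704 ± 62.6 CPM in small intestine and 24.01 ± 9.63 CPM in colon. On the colon side, Foxd2, a forkhead factor, had 0.506, 1.96, 0.416 and 1.27 CPM in small intestine, against 119, 113, 124 and 117 CPM in colon. Every colon library was above every small intestine library, with a log2 fold change of -6.77 ± 0.25 (adjusted p = 2.54e-13).

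Hox genes numbered 9 to 13 had few or no reads in small intestine. Of the 16 members, 14 had reads in colon and 10 had none in any small intestine library, among them Hoxc12 and Hoxc13, which had none in either tissue. Hoxc9 had 5 reads in small intestine and 2 in colon. Hoxb9, Hoxa9, Hoxd13, Hoxa13, Hoxa10 and Hoxb13 were tested and called lower, but each held at most 7 reads in small intestine and passed the filter through colon, so that their direction follows from the filter. Hoxa9 had 0, 0, 0.416 and 0 CPM in small intestine, against 48.5, 52.95, 39.3 and 54.996 CPM in colon. Hoxa10 had no read in any small intestine library, against 38.2, 47.7, 53.8 and 46.6 CPM in colon. Hoxd13 had no read in any small intestine library, against 16.5, 39.7, 22.7 and 26.3 CPM in colon. Small intestine libraries were at or near 0 in each, and these genes were 388-fold lower (95% counting interval 68.7 to 15412), at least 124-fold lower and at least 68.1-fold lower. Among the 23 members numbered 1 to 8, 6 were tested, of which 4 fell and 1 rose. With no filter, 7 of 19 fell and 4 rose. Hoxb6 had 7.59, 5.38, 6.24 and 2.53 CPM in small intestine, against 66.04, 10.6, 74.5 and 68.1 CPM in colon. Colon replicate 2 was far below the other colon libraries, and the log2 fold change was -3.30 ± 0.41 (adjusted p = 2.72e-06). Hoxb5 and Hoxb7 had log2 fold changes of -1.74 ± 0.28 and -2.33 ± 0.36. The tested member that rose was Hoxc8, with 9.11, 10.3, 12.1 and 13.3 CPM in small intestine, against no read in any colon library. It was the only Hoxc member tested, was found in small intestine alone, and was at least 13.1-fold higher (adjusted p = 6.77e-06). Hoxc8 passed the filter through small intestine, so that its direction, too, follows from the filter.

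**Figure D4:**
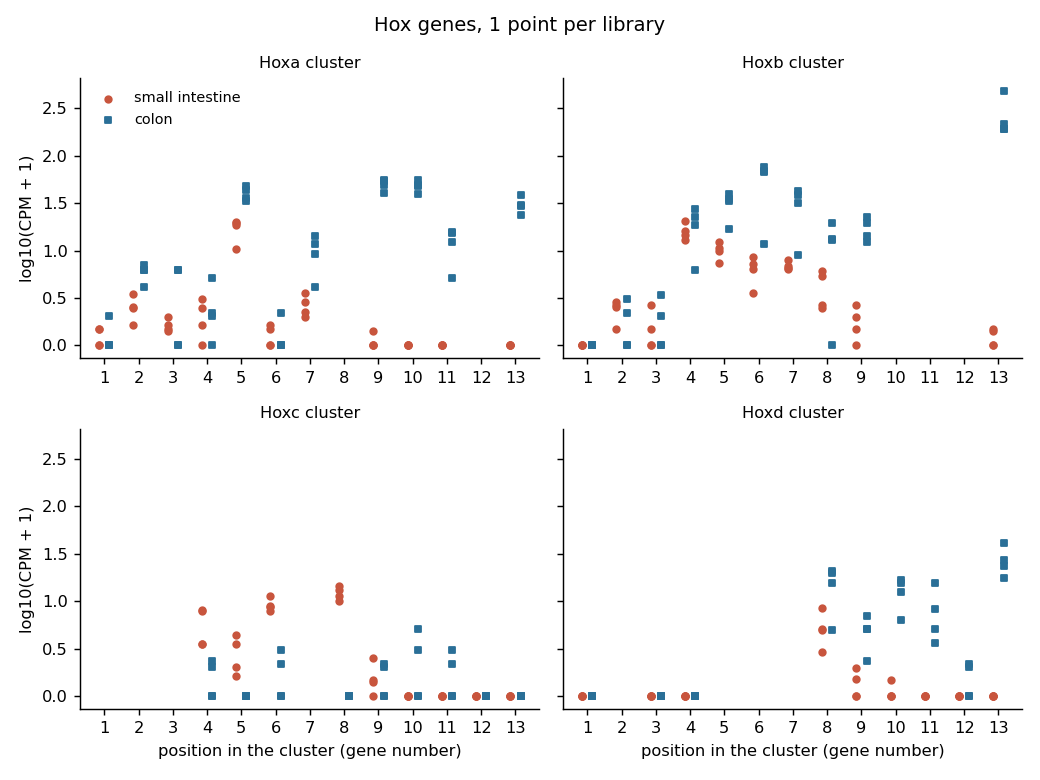
Levels of the Hox genes in the 4 clusters, as log10(CPM + 1), by gene number, with 1 point per library. Red circles are small intestine and blue squares colon. From number 9 on, the small intestine libraries lie at or near 0, and Hoxc4, Hoxc5, Hoxc6 and Hoxc8 lie higher in small intestine.

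Of 23 tested crypt genes 4 were higher and 3 lower, near the shares of 12.9% and 11.8% of all tested genes. Olfm4, a secreted protein of crypt base cells in the small intestine, had 653, 949.9, 1142 and 668 CPM in small intestine, against 0, 0, 1.03 and 0 CPM in colon. One colon library held a read, and Olfm4 was 3099-fold higher (95% counting interval 556 to 122438) (adjusted p = 1.44e-13). Lgr5, the marker of crypt base stem cells, had 26.8, 35.2, 27.4 and 21.5 CPM in small intestine, against 6.19, 9.27, 6.204 and 13.2 CPM in colon. It was higher in small intestine throughout (log2 fold change 1.70 ± 0.28, adjusted p = 6.97e-05), as was the Wnt target Axin2 (75.6 ± 13.6 CPM in small intestine and 29.7 ± 7.59 CPM in colon). Among the members that fell were Lrig1 and Ephb3, with log2 fold changes of -1.05 ± 0.18 and -1.11 ± 0.30. Lrig1 was short of the limit of 1 without small intestine replicate 1 (-0.96), replicate 4 (-0.97) or colon replicate 3 (-0.97), and Ephb3 without small intestine replicate 1 (-0.97) or colon replicate 2 (-0.99). Of 22 tested cell division genes only Top2a, a topoisomerase of dividing cells, was called, with 170.4 ± 22.97 CPM in small intestine and 73.7 ± 11.05 CPM in colon. Mki67 had 113 ± 21.7 CPM in small intestine and 65.6 ± 17.5 CPM in colon and a log2 fold change of 0.80 ± 0.17, short of the limit of 1, and 19 of the 22 members were positive, against 5014 of 10411 genes.

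Smooth muscle genes were lower in small intestine. Of 19 tested smooth muscle genes 14 fell and none rose (median log2 fold change -1.55), and their summed level was 5267 to 6056 CPM in small intestine, against 15356 to 17381 CPM in colon. Actg2, the actin of visceral muscle, had 339.7, 473, 473 and 294 CPM in small intestine, against 2027, 2176, 1995 and 1762 CPM in colon. Cnn1, calponin, had 129.6, 154, 179 and 139 CPM in small intestine, against 867, 1031, 915 and 959 CPM in colon. All colon libraries were above all small intestine libraries for both, with log2 fold changes of -2.33 ± 0.15 (adjusted p = 7.03e-10) and -2.64 ± 0.13 (adjusted p = 1.12e-11). Of 15 tested genes of enteric neurons, glia and pacemaker cells, 10 fell and none rose, or 13 of 18 without colon replicate 2 and small intestine replicate 4. Ano1, the chloride channel of the pacemaker cells of Cajal, had 15.2, 19.6, 17.5 and 14.6 CPM in small intestine, against 140.3, 205, 111 and 143 CPM in colon. It did not overlap (log2 fold change -3.14 ± 0.19, adjusted p = 1.55e-10), and the receptor Kit of the same cells was 5.22-fold lower. Nos1, which makes nitric oxide in inhibitory neurons, was 3.42-fold lower. In the fibroblast and matrix list 10 of 22 fell, 1 rose and 11 were not called. Those that fell were led by Postn (periostin) with 30.7 ± 10.1 CPM in small intestine and 212 ± 44.4 CPM in colon, while the member that rose was Fbln1, with 304 ± 46.5 CPM in small intestine and 150.4 ± 43.6 CPM in colon. The log2 fold change of Fbln1 was 1.02 ± 0.18, and it was short of the limit without small intestine replicate 1 (0.97), replicate 4 (1.00) or colon replicate 1 (0.83). Adipocyte genes fell in 8 of 9. Their summed level was 162 to 244 CPM in small intestine and 466 to 1485 CPM in colon, and Cfd, adipsin, had 17.2, 11.7, 20.8 and 27.8 CPM in small intestine, against 261, 163, 476 and 644 CPM in colon. The part of these genes in the other results was not tested.

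Several genes of intraepithelial lymphocytes and of their recruitment were higher in small intestine. Of 12 tested T cell and intraepithelial genes 11 were higher and none lower (median log2 fold change 3.26), and 27 of the 39 listed genes were too low to test. With no filter 16 of 36 were higher and none lower, with a median of 1.44, and in 1 fit of all 60 libraries 16 of 33 were, with a median of 1.33. Ccl25, the chemokine that draws lymphocytes to the small intestine, had 907, 888, 829.7 and 899 CPM in small intestine, against 8.25, 9.27, 10.3 and 14.3 CPM in colon. Its receptor Ccr9 had 11.1, 14.7, 15.8 and 10.1 CPM in small intestine, against no read in any colon library. Small intestine was higher in all libraries for both, with a log2 fold change of 6.38 ± 0.17 for Ccl25 (adjusted p = 9.15e-15), while Ccr9 was at least 15.6-fold higher. Ccr9, which is counted among the 11, passed the filter through small intestine, so that its direction follows from the filter. Gzma and Gzmb, granzymes of cytotoxic cells, were 26.2-fold higher and 14.98-fold higher. Btnl1 had 148 ± 26.97 CPM in small intestine and 32.3 ± 14.9 CPM in colon, and this butyrophilin-like molecule maintains a gamma-delta T cell class in the mouse gut. H2-T3, the class I molecule TL of enterocytes, had 247, 214, 190.5 and 273 CPM in small intestine, against 35.1, 3.97, 33.1 and 29.9 CPM in colon, with colon replicate 2 below the others. MHC class II genes were higher in 4 of 8, among them the transactivator Ciita, with 29.2 ± 4.72 CPM in small intestine and 7.05 ± 1.97 CPM in colon, and H2-Ab1, with 481 ± 112 CPM in small intestine and 199.7 ± 30.4 CPM in colon. In the myeloid list 3 of 14 were higher and 2 lower, with Itgax, a dendritic cell integrin, 3.66-fold higher and Cd14, a lipopolysaccharide co-receptor, 4.0996-fold lower. In the B and plasma cell list 2 of 9 were higher, Cd79b and Cd74, and with no filter 6 of 22 were. Over all tested genes 12.9% were higher and 11.8% lower. No list was tested against these shares, and the few calls in the myeloid and B and plasma cell lists cannot be told apart from them.

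Genes of drug and toxin metabolism were higher in 24 and lower in 5 of 50 tested members. The cytochrome Cyp2b10 had 302, 249, 178 and 376 CPM in small intestine, against 0, 0, 1.03 and 0 CPM in colon. Cyp3a11, listed with bile acids, had 566, 511, 321 and 811 CPM in small intestine, against 2.06, 0, 0 and 0 CPM in colon. Both held at most a few reads in colon. Cyp2b10 was 938-fold higher (95% counting interval 168 to 37064). Cyp3a11 had a log2 fold change of 9.72 ± 0.47, which rests on 2 reads in colon. Ugt2a3, a glucuronosyltransferase, was at least 112-fold higher. Sult1a1, a phenol sulfotransferase, went against the majority, with 14.2, 14.7, 10.4 and 12.02 CPM in small intestine, against 888, 581, 740.4 and 717 CPM in colon. It was low in all small intestine libraries (log2 fold change -5.83 ± 0.18, adjusted p = 2.60e-14). Sult1c2 and Akr1b8 fell with it, with log2 fold changes of -4.19 ± 0.26 and -4.16 ± 0.20. Cytochrome and transferase genes have close copies, so members of a subfamily may share reads. The stress response list fell in 6 of 14 and rose in 1, with Hspa1b, a heat shock chaperone that has a near-identical copy, at 9.7001 ± 4.498 CPM in small intestine and 102 ± 46.3 CPM in colon.

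Libraries of the same tissue differed in a small set of genes, chosen by spread or after their values were seen. Among genes of at least 50 CPM the highest library was a median of 1.27 times the lowest in small intestine (4015 genes, 8 of them over 4 times) and 1.34 times in colon (3889 genes, 30 over 4 times). In small intestine, Tff2, a trefoil peptide known from the stomach and duodenal glands, had 9.62, 15.2, 387 and 3072 CPM in small intestine, against 10.3, 72.8, 3.102 and 3.59 CPM in colon. S100g, the calcium binding protein calbindin-D9k, had 41.01, 200.05, 576 and 1379 CPM in small intestine, against 650.1, 15.9, 392 and 415 CPM in colon. Reg1 had 231, 662, 1045 and 2683 CPM in small intestine, against 0, 105, 0 and 0 CPM in colon. Replicate 4 was highest in small intestine in these 3 genes, and replicate 1 lowest. Tff2 was called higher (log2 fold change 5.37 ± 1.37, adjusted p = 0.00318), which became 2.78 without small intestine replicate 4 and 7.21 without colon replicate 2. Reg1 was called too (log2 fold change 5.60 ± 0.91), which became 4.81 and 13.79 without these. The value of 13.79 depends on a prior count, since the remaining colon libraries held no read of Reg1. S100g was not called and took the other sign without small intestine replicate 4 (-0.41). The same replicate 4 had the lowest Fabp6, Fgf15 and Slc10a2. In colon, replicate 2 lacked genes that the other colon libraries held. Osr2, a transcription factor, had 123, 110.1, 100.2 and 72.8 CPM in small intestine, against 83.6, 1.32, 94.1 and 69.3 CPM in colon. Cyp4b1, a cytochrome, had 221, 156, 106 and 140.5 CPM in small intestine, against 65.01, 0, 76.5 and 76.5 CPM in colon. Colon replicate 2 was at or near 0 in both, and was also low in S100g, Slc10a2, Nts, Hoxb6 and Car1, and highest in Hoxb13, Mptx1, Insl5, Tgm3 and Atp12a. The part of the organ from which each library came is not labelled, and whether sampling site moves with these genes was not tested.

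**Figure D5:**
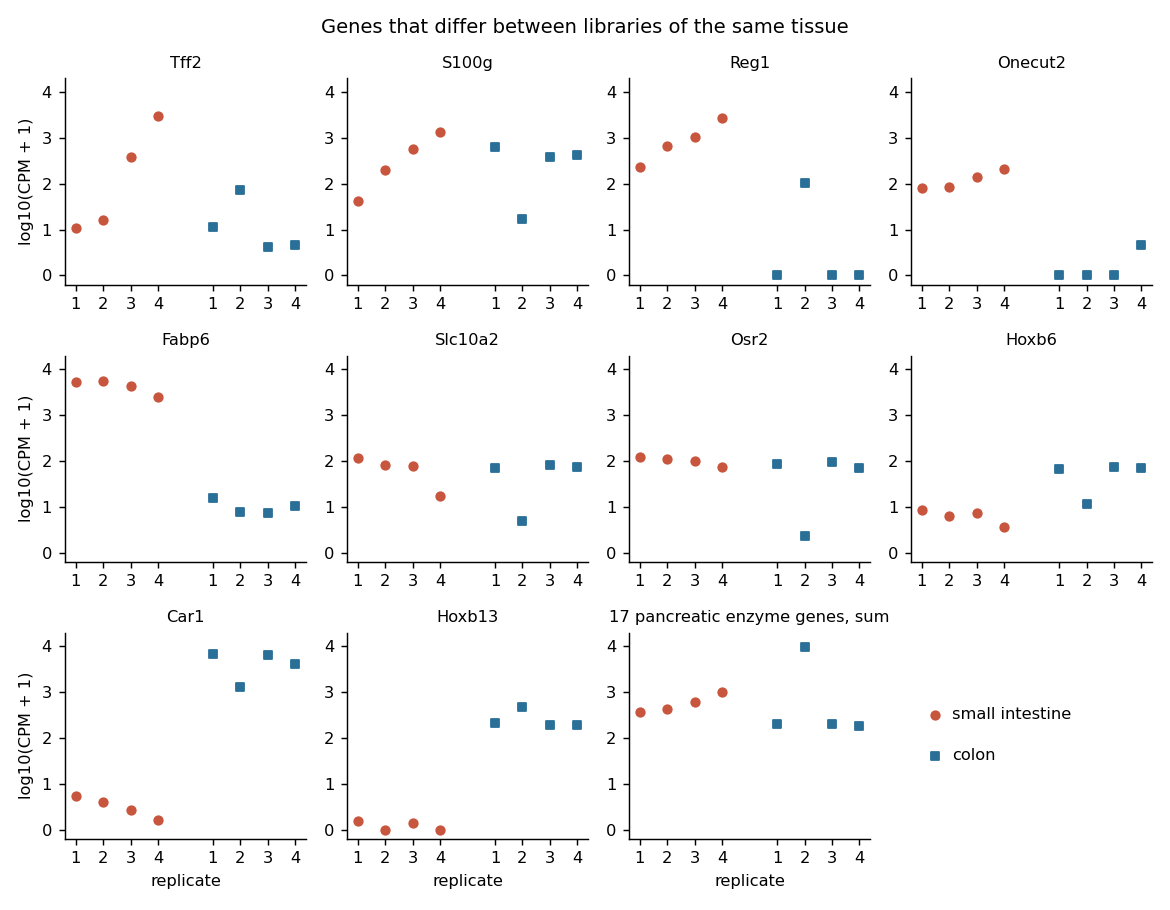
Levels in each library, as log10(CPM + 1), of 10 genes that differ between libraries of the same tissue and of the sum of 17 pancreatic enzyme genes. Red circles are small intestine replicates 1 to 4 and blue squares colon replicates 1 to 4. Colon replicate 2 stands apart in S100g, Slc10a2, Osr2, Hoxb6 and the pancreatic sum, and small intestine replicate 4 has the highest Tff2, S100g and Reg1.

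Pancreatic enzyme genes were found in colon replicate 2. The 17 genes summed to 9665 CPM there and to 185 to 205 CPM in the other colon libraries, against 367 to 1007 CPM in small intestine, highest in replicate 4. Pnlip, pancreatic lipase, had 4.05, 9.78, 27.9 and 71.5 CPM in small intestine, against 1.03, 1190.1, 0 and 0 CPM in colon. It was called lower (log2 fold change -3.42 ± 1.23, adjusted p = 0.0267) on that library alone: without colon replicate 2 the log2 fold change was 5.94 ± 1.41 (adjusted p = 0.00167). The call was also lost without small intestine replicate 1 (-3.03) or 2 (-3.10). Cela1, an elastase, had 22.3, 18.6, 42.4 and 97.5 CPM in small intestine, against 196, 1672, 188 and 179 CPM in colon. It was below colon in all libraries and remained lower without colon replicate 2 (log2 fold change -3.65 ± 0.67, or -2.10 without it and -4.26 without small intestine replicate 4). Of the 6 tested members 1 was higher and 3 lower, and without colon replicate 2 and small intestine replicate 4, 4 of 5 were higher and 1 lower. With no filter, 13 of 15 were lower and 1 higher. The other list counts moved by at most 3 members in a direction when both libraries were left out.

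The called genes were also placed among the other 13 tissues of the study. Of those higher in small intestine, 69.2% had a mean level in some other tissue above both gut tissues, most often in liver (14.9% of the 1346). Of those lower in small intestine, 77.4% did, most often in brain (17.7% of the 1232) and lung (13.6%). Over all tested genes the share was 84.5%, with liver the highest in 11.5%, brain in 10.3% and lung in 6.30%. Lung also shared the low Malat1 and mitochondrial ribosomal RNA of colon, and the part of this in its share was not tested.

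The motifs marked above were counted in the 250 bases before the start over all 32851 promoters of the table, on both strands. AGATAA was found in 9.99% of all promoters, in 7.17% of tested genes, in 19.6% of the 102 genes higher by more than 5 on the log2 scale that had an entry, and in 7.89% of the 38 genes lower by as much. TTTATNG was found in 9.81%, 7.57%, 27.5% and 13.2% of these sets, and 32.8% of the promoters with such a match had it overlap a TATAAA. CAAAGTNCA was found in 1.19%, 1.25%, 5.88% and 0%. GTTAAT was found in 6.43%, 5.17%, 23.5% and 15.8%. TATAAA itself was found in 12.4%, 8.28%, 34.3% and 39.5%. The first share of each motif counts promoters and the others count genes. By gene, all entries held AGATAA in 11.4%, TTTATNG in 11.3%, CAAAGTNCA in 1.4%, GTTAAT in 7.49% and TATAAA in 14.3%. Both gut sets thus held TATAAA more often than all genes with an entry did. These are counts of letters without a test, and a gene counts as a match if any of its listed starts has one. Close copies of a gene count separately. Defa21 and Defa22, both among the 102 genes, hold TTTATNG and TATAAA in identical bases, so the genes are not independent observations. The part of such copies in the shares was not tested.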

How the data were processed

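Small intestine and colon, 4 libraries each, were taken from a study of 15 tissues. Per the labels' protocols, RNA was extracted with TRIzol, primed with barcoded oligo(dT) and sequenced without molecular identifiers being described, so intervals and floors cover counting error only. The deposited values are counts of reads per gene. The submitters' processing notes name FastQC, STAR, featureCounts and mm10, with no versions, and no source used here gives the strand setting. Genes that overlap on opposite strands may therefore share reads.

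Of 54532 genes, 54495 matched GENCODE release M21 by ID, which gave type and position, and 21982 nuclear protein-coding genes were kept. The comparison used edgeR 4.0.16 (with limma 3.58.1, R 4.3.3): genes with enough counts were kept by filterByExpr (minimum count 10, minimum total 15), libraries were scaled by TMM, and the quasi-likelihood test was two-sided, its p-values adjusted by Benjamini-Hochberg over all 10411 genes. Calls needed an adjusted p under 0.05 and a log2 fold change beyond 1. The standard error is the log2 fold change divided by the square root of F. CPM use the TMM-adjusted totals. A fold is the ratio of mean CPM; with no read in a tissue it is a bound from 3 counts over its 4 libraries, and with 1 to 3 counts it has an exact 95% interval. The procedure was tested on simulated counts.

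The members and the 37 gene lists were chosen with earlier results of these data known. Named genes were the markers, the 12 leading in each direction (at least 50 CPM, no overlap), up to 8 called members per list with at least 5 CPM, members against their list, and the highest uncalled; unnamed models were passed over. Some genes under the rule are not reported here. Alternatives were DESeq2 1.42.0 (size factors and Wald test), library totals, no filter, all gene classes, all 60 libraries, thinning, no fold limit, a replicate block and leaving out each library.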

Additional observations from a re-analysis of the deposited data

Results flagged for a closer look

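In 29 gene and tissue pairs, 1 library lay far from the other 3 of its tissue. The ratio of its gap to the range was above Dixon's 95% critical value. Colon replicate 2 was that library in 20 pairs, small intestine replicate 4 in 3 and other libraries in 6. The 194 named genes make 388 pairs, but pairs with all libraries equal or under 5 CPM were not examined. Chance flags about 1 in 20 of the pairs examined. Some genes were named for their spread, so the flags cannot be set against that rate.

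Colon replicate 2 was above the other colon libraries in genes of the pancreas and in several genes of the colon epithelium. It had 1190.1 CPM of Pnlip, 1672 of Cela1, 1097 of Clps and 104.6 of Reg1, where the other colon libraries reached at most 1.03, 196, 75.3 and 0 CPM. It had 394 CPM of Ang4 and 72.8 of Tff2, against at most 87.3 and 10.3 CPM. Epithelial genes that stood above were Clca1 (4424 CPM), Hoxb13 (477), Insl5 (267), Mptx1 (4421), Pyy (277) and Sval1 (950.5), with at most 2510.4, 214, 134, 1416, 197 and 479.8 CPM in the others.

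The same library was below the others in Cyp4b1 (0 CPM), Nts (0), H2-T3 (3.97), Slc10a2 (3.97), Hoxb6 (10.6), Slc12a2 (254), Muc2 (11784) and Dmbt1 (2072). The lowest of the other colon libraries had 65.0, 40.6, 29.9, 69.1, 66.0, 342, 15652 and 3089 CPM of these genes.

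Small intestine replicate 4 was above its tissue in Tff2 (3072 CPM, against at most 387 CPM in the other small intestine libraries), Alpi (1942, against at most 1047) and Slc46a1 (203, against at most 103).

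The other small intestine values that stood apart were smaller steps. They were Agr2 (775 CPM) and Mptx2 (673) in replicate 2, Cd320 (19.5) and Chga (74.4) in replicate 3, and Cubn (514) and St6galnac6 (5.57) in replicate 1. Their part in the comparisons is given where leaving out the library changed a call.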

How the results depend on the processing

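The counts of 1346 genes higher and 1232 lower stayed within 1.5 times under DESeq2 size factors, library totals, no filter, DESeq2's Wald test, all gene classes and thinning. One fit of all 60 libraries gave 2090 higher and 1446 lower, and no limit on the fold change gave 2697 and 2677. Leaving out 1 library gave 1272 to 1509 higher and 1146 to 1381 lower. Same-numbered libraries had deviation correlations of 0.124, -0.02, 0.099 and 0.022, against -0.109 to 0.035 for libraries with unlike numbers. For 2 of 4 numbers the correlation was best with their own. With so few pairs, this cannot tell whether replicate numbers pair the samples. With the number as a replicate block the counts were 1350 and 1236. Of 194 genes named, 173 were called, and 14 of these fell short of a limit under some alternative, 8 of them on leaving out 1 library. In 35 genes, mostly with few reads in 1 tissue, leaving out 1 library moved the fold by over 1.5 times.

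The log2 fold change changed sign in 7 genes, of which all but Pnlip were not called. With library totals it was -0.17 for Cdx2, -0.19 for Gucy2c, -0.081 for Hnf4a and -0.22 for Zg16. Leaving out 1 library gave -0.073 to 0.23 for Cdx2, -0.045 to 0.15 for Gucy2c, -0.41 to 0.99 for S100g, -0.0065 to 0.68 for Slc10a2, -0.071 to 0.18 for Zg16 and -3.85 to 5.94 for Pnlip. The lowest values came without colon replicate 2 (Cdx2, Gucy2c, Slc10a2), small intestine replicate 4 (S100g) and colon replicate 3 (Zg16), and the value of 5.94 came without colon replicate 2. Without both small intestine replicate 4 and colon replicate 2, chosen after seeing the data, it was -0.0074 for Cdx2, -0.055 for Gucy2c and -0.82 for S100g. The cause was not tested. The colon libraries are shallow, which limits genes low in colon.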

Other observations

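The counts in these short lists stand beside 12.9% higher and 11.8% lower over all tested genes. Of 7 tested tuft cell genes 1 was higher and none lower (1 higher and 2 lower of 9 without colon replicate 2 and small intestine replicate 4). Of 14 clock genes 1 was lower and none higher, Cry1, with 7.601 ± 3.07 CPM in small intestine and 21.4 ± 4.498 CPM in colon. Endothelial genes had 1 call higher, the growth factor receptor Kdr with 34.5 ± 10.7 CPM in small intestine and 14.9 ± 4.76 CPM in colon, and 1 lower of 13, and the call of Kdr was lost without colon replicate 2 (log2 fold change 0.98). Interferon-stimulated genes were higher in 4 and lower in 1 of 17, and Ifit1, which binds viral RNA, had 62.8, 33.3, 53.7 and 59.5 CPM in small intestine, against 11.4, 5.295, 20.7 and 22.7 CPM in colon. Small intestine was above colon throughout for Ifit1 (log2 fold change 1.77 ± 0.29, adjusted p = 6.71e-05). Genes of residual blood were higher in 3 and lower in 1 of 5, or 1 and 1 without those libraries. The beta-globin Hbb-bs had 52.1, 26.4, 32.9 and 55.7 CPM in small intestine, against 24.8, 17.2, 18.6 and 11.96 CPM in colon, with no overlap, and the platelet gene Pf4 fell, with 12.6 ± 0.994 CPM in small intestine and 46.5 ± 6.84 CPM in colon. In the squamous list 1 of 13 members was tested, and it was not called.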
